A study of Mus musculus with 3 samples.

Results

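The smooth muscle contractile genes Acta2, Tagln, Myh11, Cnn1, Mylk and Actg2 were found by their gene symbols and are 6 of the 33696 features of the count matrices. The cells came from the larynges of Lrig1CreERT2/+; ROSA26 LSL-tdTomato/+ mice, in which tamoxifen lets a Cre recombinase expressed from the Lrig1 locus switch on the red reporter tdTomato, so that every library carries the same alleles and treatment. Each of the 3 libraries was a pool of 10 larynges (5 male and 5 female) taken 24 h after recombination, and only cells sorted for tdTomato were sequenced. Mouse age was not given in the sources used here, and the wild-type and reporter-only cells that set the sorting gate were not analysed here. The count matrices hold no row for the reporter or the recombinase, which leaves the sort unchecked. The groups compared were therefore groups of cells: Lrig1+ cells with at least 1 Lrig1 UMI and Lrig1- cells with 0, where a UMI (unique molecular identifier) marks 1 captured transcript. The questions were which cells hold the UMIs of each gene, and where the lower level in Lrig1+ cells comes from.

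The genes belong to the contractile programme of smooth muscle. Acta2 and Actg2 encode the smooth muscle alpha and gamma actins of the thin filament, Myh11 encodes the smooth muscle myosin heavy chain, and Tagln (transgelin) and Cnn1 (calponin) encode actin-binding proteins. Mylk encodes the myosin light chain kinase, which starts contraction by phosphorylating the myosin light chain when calcium and calmodulin rise. In most organs the programme is run by vascular and visceral smooth muscle and by pericytes, and it is switched on by serum response factor together with its co-activator myocardin. Parts of it are used by other cells too: by activated fibroblasts (myofibroblasts), by immature skeletal muscle cells, and by myoepithelial cells, the keratin 14-bearing contractile cells around gland acini.

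In the GRCm39 build the genes lie apart from each other, with Acta2 at chr19:34217737-34232990 on the minus strand and Actg2 at chr6:83489887-83513551 on the minus strand. Tagln lies at chr9:45840909-45847404 (minus) and Cnn1 on the same chromosome at chr9:22010512-22020926 (plus). Myh11 lies at chr16:14012399-14109236 (minus) and Mylk at chr16:34565580-34822790 (plus). Serum response factor binds the CArG box, whose letters are CC, 6 bases of A or T, and GG. Because the members move together below, the 250 bases before the start of Acta2 are shown, read from RefSeq (GRCm38.p6, chr19:34255374-34255623, minus strand), with capitals marking the 10-base matches that have at least 5 A or T among the 6 core bases.

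Acta2: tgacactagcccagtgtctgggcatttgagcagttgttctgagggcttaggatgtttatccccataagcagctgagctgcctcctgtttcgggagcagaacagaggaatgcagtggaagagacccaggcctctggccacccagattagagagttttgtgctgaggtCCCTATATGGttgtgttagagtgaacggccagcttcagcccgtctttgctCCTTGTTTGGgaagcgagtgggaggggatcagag

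The matches lie at -84 to -75 and at -34 to -25 from the start, and each has 5 A or T in its core, so neither is a match to the full CArG letters. On both strands of the same window, 8.59% of 32851 promoters held at least 1 such relaxed match and 0.670% held 2 or more, while 1.47% held the full letters. The Cnn1 and Mylk windows held 0 matches of either kind, which says only that these letters are not in the window. The promoter table used here was matched for 3 of the 6 genes (Acta2, Cnn1 and Mylk), and Tagln, Myh11 and Actg2 were not searched.

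The 3 libraries held 60530 barcodes, of which 44542 were kept after limits on genes, UMIs and mitochondrial reads and the removal of likely doublets (13222, 7201 and 24119 cells in libraries 1 to 3). The median depth was 10745, 14219 and 10514 UMIs per cell. Lrig1+ cells made up 41.1%, 57.2% and 50.2% of the libraries and were the deeper cells, with medians of 15072, 17819 and 14595 UMIs against 7379, 9782 and 6395 in Lrig1- cells. The libraries shared 46 to 165 barcode sequences pairwise. Of the clusters, 1 of 3704 cells came from library 3 alone. It was left unnamed because over 95% of its cells came from 1 library, a rule set after the clusters had been seen. By the marker lists alone its best match was the cycling list, with 6 markers (85.7%) raised. The shares held by the pericyte or smooth muscle-like class and the composition shares are therefore also given without it, as means over libraries. The counts of members called are also given without it. Cell classes are clusters named from fixed marker lists, and the 6 members and Lrig1 were left out of the genes used for clustering. A class is called "-like" because its name comes from these markers.

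Most UMIs of Acta2, Tagln and Myh11 sat in very few cells. The pericyte or smooth muscle-like class held 74, 13 and 50 cells, and 0.393%, 0.143% and 0.142% of all UMIs of the 3 libraries. Yet it held 44.6% ± 10.3 (SD, n = 3 libraries) of the summed UMIs of the 6 genes (45.9% ± 11.8 without the cluster of library 3 alone). Over the pooled cells all 12 pericyte and smooth muscle markers were raised in it, among them Rgs5, Notch3, Pdgfrb and Gucy1a1, although Steap4 in library 3 was not (26.2 CPM against 28.6 CPM in other cells), and the same 137 cells formed the class at all 3 clustering resolutions tried. Since classes are clusters of these same cells, levels by class are descriptions and were not tested.

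**Figure D1:**
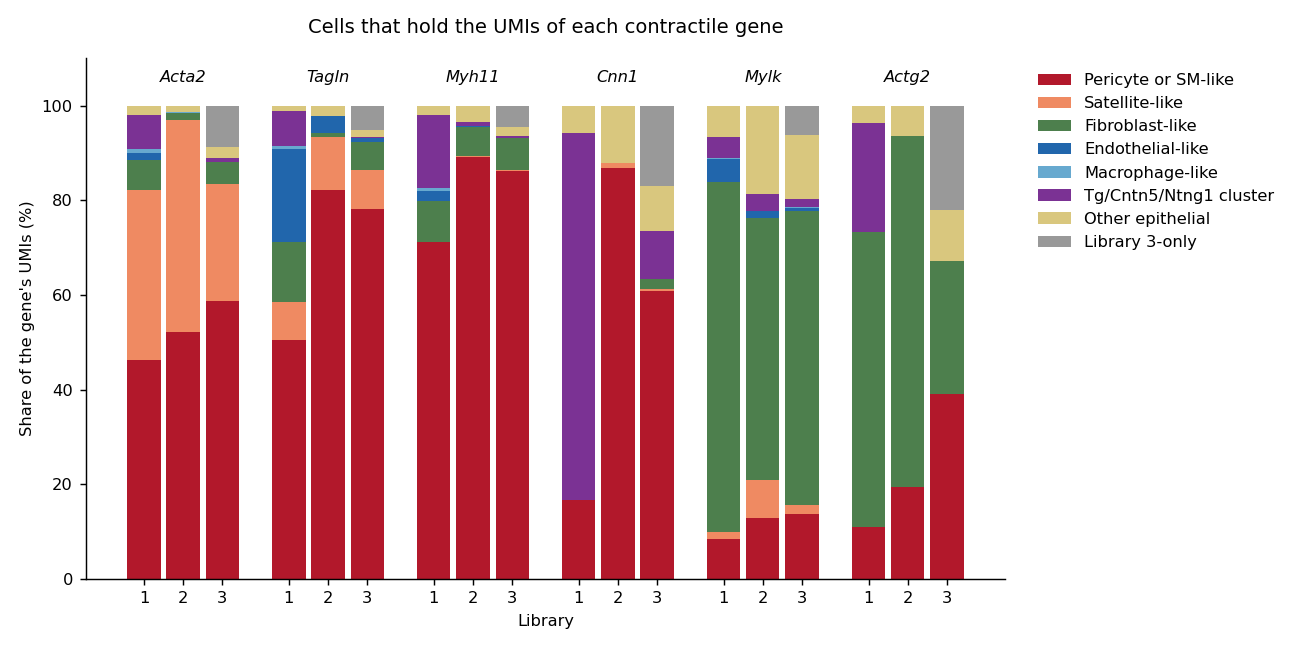
Stacked bars give, for each of the 6 genes and each library, the percentage of the gene's UMIs (vertical axis) held by each cell class. The pericyte or smooth muscle-like class is the largest holder of Myh11 in every library (71.1% to 89.2%), muscle satellite-like cells appear as a holder of Acta2 (24.6% to 45.0%), and fibroblast-like cells hold most of Mylk (55.5% to 74.0%).

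Acta2 had 25067 UMIs in 3570 cells and levels of 44.0, 33.7 and 48.5 CPM (counts scaled to the total UMIs of all genes) in libraries 1 to 3 (42.1 ± 7.56, SD, n = 3). It had a pair of main holders. The pericyte or smooth muscle-like class held 46.1%, 52.1% and 58.8% of its UMIs, and muscle satellite-like cells, the Pax7 and Myf5-expressing stem cells of skeletal muscle, held 36.1%, 45.0% and 24.6%. Fibroblast-like cells held 6.34%, 1.36% and 4.60%. The Tg/Cntn5/Ntng1 cluster, an unnamed epithelial cluster, held 7.26% in library 1, and the cluster of library 3 alone held 8.71% there. Without the latter the mean share of the pericyte or smooth muscle-like class was 54.2% ± 9.31 in place of 52.3% ± 6.32 (SD, n = 3). By level within a class, the first and second places were the same in every library. The pericyte or smooth muscle-like class was highest, at 5168, 12258 and 20019 CPM, and the muscle satellite-like class followed at 409, 253 and 478 CPM, so the classes did not overlap. Below them, fibroblast-like cells at 17.3, 9.65 and 36.4 CPM and endothelial-like cells at 20.3, 11.4 and 4.77 CPM did not differ beyond the spread between libraries. The place after muscle satellite-like cells changed with the library: in library 1 it was taken by the Tg/Cntn5/Ntng1 cluster at 129.8 CPM, which had 3.18 and 22.1 CPM in the others. In each library 50% of the Acta2 UMIs were held by the 23, 8 and 27 richest cells.

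Tagln had 10549 UMIs in 1089 cells, at 22.2, 14.3 and 18.4 CPM. The pericyte or smooth muscle-like class held 50.5%, 82.1% and 78.1% of them, with levels of 2855, 8179 and 10084 CPM. What set Tagln apart from Acta2 was its second rank by level, which went to endothelial-like cells (148, 160 and 95.3 CPM) and not to muscle satellite-like cells (45.8, 26.6 and 61.1 CPM). The endothelial-like cells of library 1 (521 cells, against 31 and 45 in the others) held 19.8% of its Tagln UMIs, against 3.54% and 0.737% in libraries 2 and 3. Within the endothelial-like class at the finer clustering, the lymphatic endothelial-like cells had 4.55, 0 and 0 CPM of Tagln and the remaining, blood vessel side of the class had 181, 208 and 123 CPM, on 121, 8 and 15 cells against 400, 23 and 30. Mylk did not follow this split, at 177, 85.7 and 138 CPM in lymphatic endothelial-like cells against 80.8, 123 and 160 CPM in the rest.

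Myh11 was the member most bound to the pericyte or smooth muscle-like class. Of its 7601 UMIs (14.4, 8.99 and 14.6 CPM), that class held 71.1%, 89.2% and 86.2%, at 2603, 5591 and 8845 CPM. Muscle satellite-like cells, so rich in Acta2, had 1, 2 and 9 Myh11 UMIs in all, a share of at most 0.209% in any library. Fibroblast-like cells held 8.78%, 6.22% and 6.79% of Myh11 at 7.81, 11.7 and 16.2 CPM. The 15.4% of library 1 that lay in an unnamed epithelial cluster is described with the Krt14+ cells.

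Cnn1 and Actg2 were rare. Cnn1 had 120, 99 and 207 UMIs in the 3 libraries, in 129 cells in all, and 4, 2 and 9 cells held 50% of them. Its shares in the pericyte or smooth muscle-like class were 16.7%, 86.9% and 60.9%, with levels of 32.0, 541 and 299.6 CPM. Library 2 rested on few cells, since a single cell held 44 of its 99 Cnn1 UMIs. The barcodes removed as doublets held a further 85, 2 and 201 Cnn1 UMIs, which is 41.5%, 1.98% and 49.3% of the Cnn1 UMIs within the quality limits. Actg2 had 109, 31 and 82 UMIs in 86 cells, of which the pericyte or smooth muscle-like class held 11.01%, 19.4% and 39.0% and fibroblast-like cells 62.4%, 74.2% and 28.0%. A single cell held 16 of the 31 Actg2 UMIs of library 2, in 7 cells in all. The cluster of library 3 alone held 16.9% of the Cnn1 and 22.0% of the Actg2 UMIs of that library, and without it the mean share of the pericyte or smooth muscle-like class was 58.9% in place of 54.8% for Cnn1 and 26.8% in place of 23.1% for Actg2.

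Mylk was the exception in its distribution. Its 22784 UMIs lay in 6743 cells, and 398, 126 and 386 cells were needed to hold 50% of them. Fibroblast-like cells held 74.0%, 55.5% and 62.1% of Mylk, and the pericyte or smooth muscle-like class 8.46%, 12.9% and 13.7%. By level, however, the pericyte or smooth muscle-like class again ranked first, at 1315, 2405 and 3277 CPM, followed by fibroblast-like cells at 280, 311 and 346 CPM, with a gap in every library. Without the cluster of library 3 alone, the mean share of the pericyte or smooth muscle-like class was 11.97% for Mylk, 71.7% for Tagln and 83.5% for Myh11, in place of 11.7%, 70.2% and 82.2%. The Mylk gene also makes telokin, a short product of its 3' end, and these 3' counts cannot tell the kinase transcripts from telokin.

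**Figure D2:**
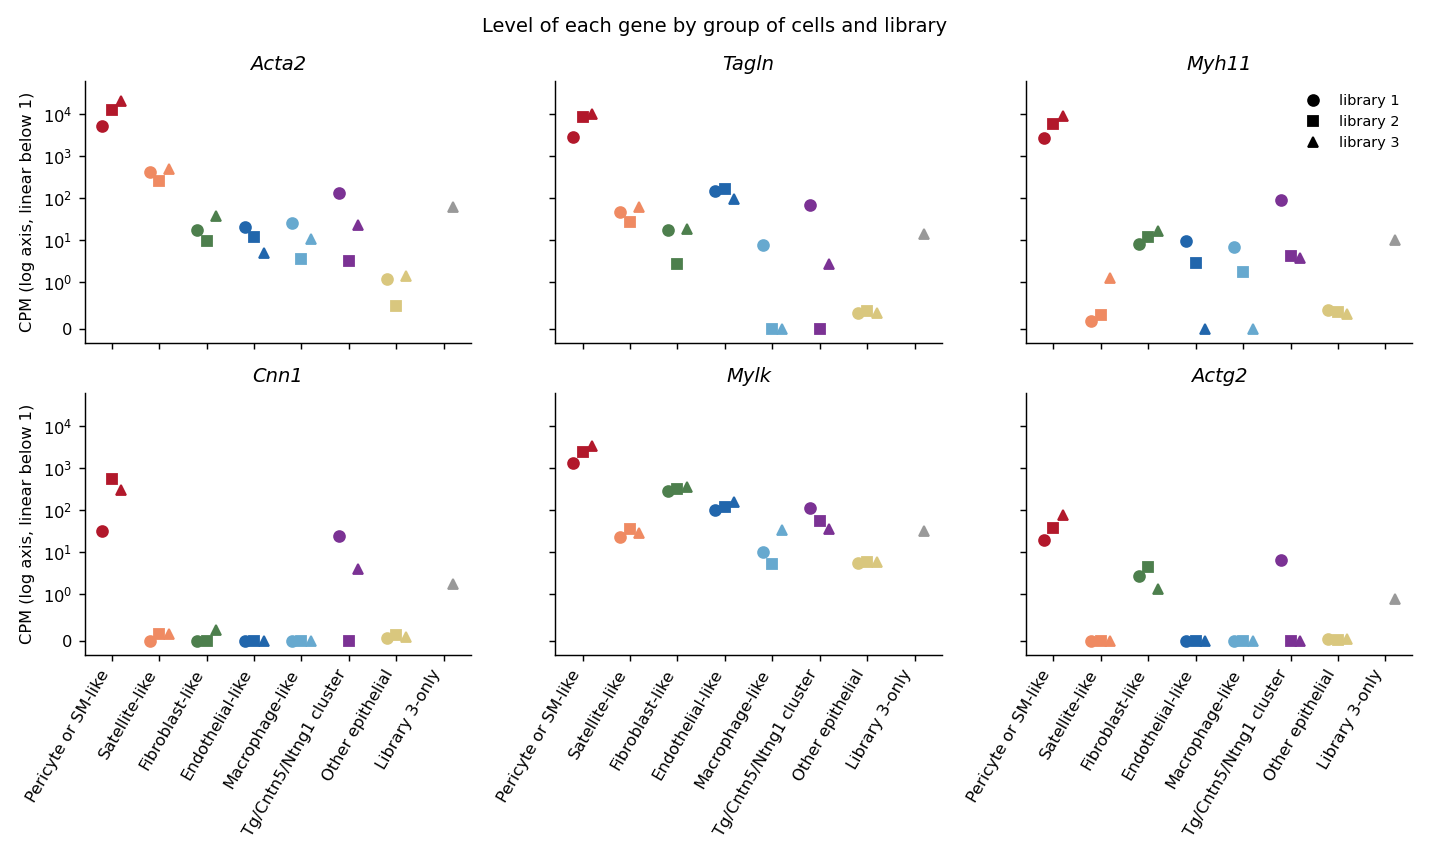
Each panel shows 1 gene: points are the level in 1 library (shape) and 1 cell class (position and colour), in CPM on a log axis that is linear below 1. All 6 genes are highest in the pericyte or smooth muscle-like class, where Acta2 runs from 5168 to 20019 CPM and Actg2 from 19.2 to 76.1 CPM, and only Acta2 has a high second level in muscle satellite-like cells (253 to 478 CPM).

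Inside the pericyte or smooth muscle-like class the cells were of unequal make-up between libraries. Library 1 was rich in the genes that mark pericytes of small vessels: Kcnj8 and Abcc9, the subunits of a potassium channel, stood at 652 and 1405 CPM against 50.4 and 132 CPM in library 2 and 16.6 and 21.4 CPM in library 3. In library 1, the 54 cells with a Kcnj8 or Abcc9 UMI had 1343 CPM of Acta2, 782 of Tagln and 0 of Cnn1, and the 20 cells with neither had 12403, 6779 and 92.4 CPM. Libraries 2 and 3 had only 5 and 6 cells with such a UMI, with 12264 and 8887 CPM of Acta2, against 12252 and 21956 CPM in their 8 and 44 other cells. The library with the lowest Acta2 level in the class was thus the one with the most Kcnj8 or Abcc9 cells, and the part of these cells in the difference between libraries was not tested.

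Cell by cell, Acta2 was detected in 59.5%, 84.6% and 100% of this class and Myh11 in 85.1%, 100% and 100%. In library 3 the lowest, median and highest Acta2 cells had 1196, 20949 and 50109 CPM, and in library 1 they had 0, 366 and 20020 CPM. Library 1 thus held many cells of the class with Myh11 but little or no Acta2. Over the 137 cells, Acta2 and Tagln had a Pearson r of 0.93, Acta2 and Myh11 of 0.84, and Acta2 and Mylk of 0.65, while Cnn1 and Actg2, whose counts are sparse, had 0.25 to 0.49 with the other members. These are descriptions over cells that share 3 libraries.

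Muscle satellite-like cells carried Acta2, with some Tagln and Mylk and almost no Myh11, Cnn1 or Actg2. An Acta2 UMI was found in 55.5%, 45.5% and 63.7% of the 887, 787 and 1197 cells, while Actg2 had 0 UMIs in all of them and Cnn1 had 0, 1 and 1. For every 100 Acta2 UMIs these cells held 11.2, 10.5 and 12.8 of Tagln and 0.0395, 0.119 and 0.255 of Myh11, against 55.3, 66.7 and 50.4 of Tagln and 50.4, 45.6 and 44.2 of Myh11 in the pericyte or smooth muscle-like class. The counts of the genes therefore stood in another ratio in these cells. Their 284, 177 and 451 Tagln UMIs and 142, 235 and 202 Mylk UMIs were above the 6.41, 11.3 and 15.3 and the 15.2, 20.5 and 25.5 that the upper end of the ciliated-like background level, described further on, would give. Acta2 was higher in cells with a UMI of Myod1 or Myog, the regulators of muscle commitment, at 710.5, 290 and 611 CPM, than in cells with neither, at 317, 238 and 427 CPM. It was also higher in cluster 8, led by Myf5, Mest, Chodl and Pax7 (554, 428 and 486 CPM), than in cluster 9, led by Csmd1, Slc7a8 and Fosb (209, 206 and 374 CPM).

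Among fibroblast-like cells the members split by cluster. Cluster 13, marked by Hhip and Col23a1, had more Mylk (480, 502 and 434 CPM) and more Acta2 (41.7, 23.1 and 52.6 CPM) than cluster 11, led by Prg4, Myoc and Lum (180, 215 and 226 CPM of Mylk and 8.30, 1.48 and 14.4 CPM of Acta2). The remaining cluster 12, led by Angptl7, had 227, 256 and 666 CPM of Mylk, the last on 3 cells. Myh11 followed the same order in clusters 13 and 11, at 17.5, 18.5 and 24.7 CPM in cluster 13 and 2.79, 3.44 and 4.58 CPM in cluster 11. Tagln stood at 18.9, 5.41 and 23.0 CPM in cluster 11 and 18.1, 1.98 and 13.9 CPM in cluster 13, but single fibroblast-like cells held 125 of the 445 UMIs in library 1 and 106 of the 321 in library 3, and library 2 had 14 in all, so no order is read from it. Actg2 went the other way. All 114 fibroblast-like UMIs of Actg2 lay in cluster 11, in 41 cells (28, 4 and 9 per library) that formed part of a single cluster of 1289 cells at the finer clustering. Of these cells 37 had no Acta2 UMI, and 85.4% had a UMI of Sox9, a transcription factor of cartilage and glands, against 20.6% of the other fibroblast-like cells. Their median depth was 13541 UMIs against 10034, and its part in the Sox9 share was not tested.

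Contractile cells with keratin 14 were looked for by a gate of at least 2 Krt14 UMIs and at least 5 UMIs summed over Acta2, Myh11, Cnn1 and Actg2. Of 32303 epithelial cells 14 passed, 10 in library 1, 0 in library 2 and 4 in library 3, and 13 of them lay in 1 unnamed cluster led by Tg, Cntn5, Prlr and Ntng1 (890 cells; 205 CPM of Sox9 against 17.7 in all other cells). The gate was extended to unnamed clusters with high Epcam after their values had been seen. The 14 cells held 422 UMIs of Acta2, 238 of Myh11, 103 of Tagln, 84 of Mylk and 83 of Cnn1. With 62 and 21 UMIs, they accounted for 51.7% of the Cnn1 of library 1 and 10.1% of that of library 3. The library 3 share depends on the doublet removal, since 6 removed barcodes of library 3 also passed the gate, with 187 Cnn1 and 1255 Acta2 UMIs. The 14 kept cells had no Actg2 UMI and no UMI of Oxtr, the oxytocin receptor that marks myoepithelial cells of the breast. The 6 removed barcodes of library 3 had 13 Actg2 UMIs.

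Because the gate uses 4 of the members, their levels in these cells are given as a description. Krt5 UMIs were present in 12 of the 14 cells, Sox10, a gland and nerve-sheath factor, in 8, and Lrig1 in 3. The summed UMIs of the 12 pericyte markers ran from 0 to 10 per cell, with 5 cells at 0 and 4 at 2 or more. The cell with the most Acta2 held 79 Acta2, 84 Myh11 and 21 Cnn1 UMIs beside 10 of Krt14 and 0 of the pericyte markers. A cell of the same cluster in library 1 fell outside the gate, with 177 Acta2, 172 Tagln, 116 Myh11, 25 Cnn1 and 25 Actg2 UMIs but 0 of Krt14 and 0 of Epcam. In library 2 the 116 cells of the cluster had 6 Acta2 UMIs in all.

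**Figure D3:**
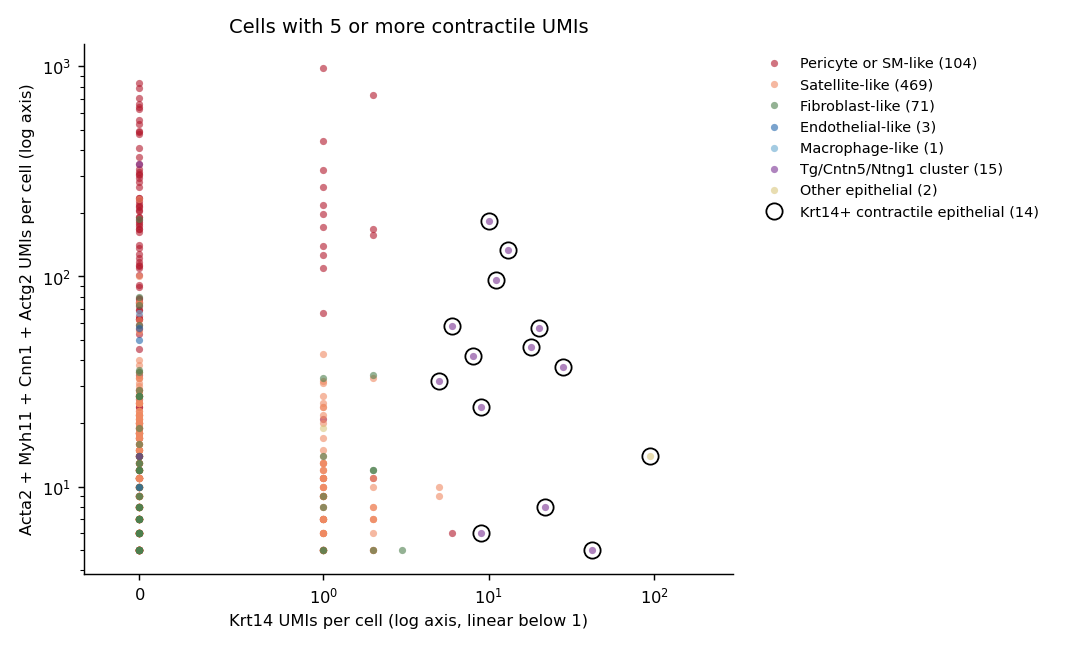
Each point is 1 cell that holds at least 5 UMIs summed over Acta2, Myh11, Cnn1 and Actg2 (665 cells), with its Krt14 UMIs and these contractile UMIs on log axes (that of Krt14 linear below 1), coloured by class. The 14 gated cells (circled) have 5 to 94 Krt14 UMIs, and most of the 104 pericyte or smooth muscle-like and 469 muscle satellite-like cells have 0 or 1.

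The plan was to pool macrophage-like, ciliated-like and neuroendocrine-like cells for a background level. It was instead read from ciliated-like cells alone, which are not known for this programme. They had 1.43, 0.471 and 1.01 CPM of Acta2 (10, 2 and 5 UMIs; 95% exact Poisson intervals of 0.687 to 2.64, 0.0570 to 1.70 and 0.329 to 2.36, covering counting error only) in 1.75%, 0.678% and 0.849% of their cells. The other epithelial clusters include the ciliated-like cells but not the Tg/Cntn5/Ntng1 cluster, which was set apart for its higher Acta2 level. Their low Acta2 level thus follows in part from that choice. Together, with 72.7%, 86.5% and 82.3% of all UMIs, they held Acta2 at 1.17, 0.480 and 1.40 CPM, near the ciliated-like level. Mylk was not: it stood at 5.54, 5.79 and 5.59 CPM in the other epithelial clusters and at 1.29, 1.41 and 1.82 CPM in ciliated-like cells, and their 641, 555 and 1361 Mylk UMIs exceeded the 283, 295 and 842 allowed by the upper end of the ciliated-like level. The upper ends of the pooled intervals for Mylk were 4.35, 3.13 and 6.82 CPM, so the other epithelial clusters of library 3 did not exceed theirs. In that pool 1 cell held 15 of the 25 Mylk UMIs of library 3. Myh11 stood at 0.397, 0.355 and 0.312 CPM in the other epithelial clusters, below the 1.29, 2.12 and 1.62 CPM of ciliated-like cells. The ciliated-like level is thus not a floor for every member. Among macrophage-like cells of library 1, a single cell held 52 of 57 Acta2 UMIs.

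The cluster found in library 3 alone held 8.71% of the Acta2 UMIs of that library. It had 62.2 CPM of Acta2 in 28.8% of its cells, and no cell with more than 4 UMIs. The variance of Acta2 over the mean across its cells was 0.993, where the rest of library 3 had 204. Genes of other cell types had the same kind of values there. Scgb1a1, the secretory cell product, stood at 225 CPM in the cluster and 224 CPM in the rest, with variance over mean of 1.12 against 3017, and Tagln and Myh11 stood at 13.99 and 9.81 CPM against 18.7 and 15.0 CPM. The cluster had a median of 5726 UMIs per cell and 32.6% of it was Lrig1+.

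Lrig1+ cells were scarce in the pericyte or smooth muscle-like class. Only 11, 4 and 8 of the 74, 13 and 50 pericyte or smooth muscle-like cells had a Lrig1 UMI (14.9%, 30.8% and 16%, against 41.1%, 57.2% and 50.2% of all cells). With every cell thinned to 5000 UMIs, leaving out shallower cells, the shares were 11.1%, 11.1% and 12.1% on 63, 9 and 33 cells, against 26.5%, 32.2% and 32.6% of all cells. Macrophage-like cells, which are not known to express Lrig1, had thinned shares of 0.781%, 0% and 6.90%. Counted the other way, the class made up 0.203%, 0.0971% and 0.0660% of Lrig1+ cells and 0.809%, 0.292% and 0.350% of Lrig1- cells. Fibroblast-like cells, the main holders of Mylk, made up 11.6%, 3.57% and 5.199% of Lrig1+ cells and 23.0%, 9.64% and 9.87% of Lrig1- cells.

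The summed levels of all 6 genes were lower in Lrig1+ than in Lrig1- cells of every library, and the groups did not overlap for any of them. The share of all genes that separated in this way is not given here, so this count is a description. Acta2 stood at 17.8, 19.0 and 20.4 CPM in Lrig1+ cells and at 76.1, 65.1 and 96.1 CPM in Lrig1- cells. Tagln stood at 5.06, 8.86 and 6.98 CPM against 43.2, 25.8 and 37.7 CPM, and Myh11 at 3.03, 4.97 and 5.93 CPM against 28.3, 17.5 and 29.3 CPM. These 3 genes thus had between 0.107 and 0.343 of their Lrig1- level. Mylk, at 34.7, 17.3 and 23.0 CPM against 93.4, 46.9 and 53.1 CPM, had 0.368 to 0.434 of it. Cnn1 had 0.126, 0.795 and 0.274 CPM against 1.52, 1.10 and 1.43 CPM, and Actg2 0.308, 0.0265 and 0.140 CPM against 1.14, 0.819 and 0.512 CPM, both on few UMIs. In sums of this kind, fewer cells of a type and less RNA per cell cannot be told apart, which is why the classes are taken separately afterwards.

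**Figure D4:**
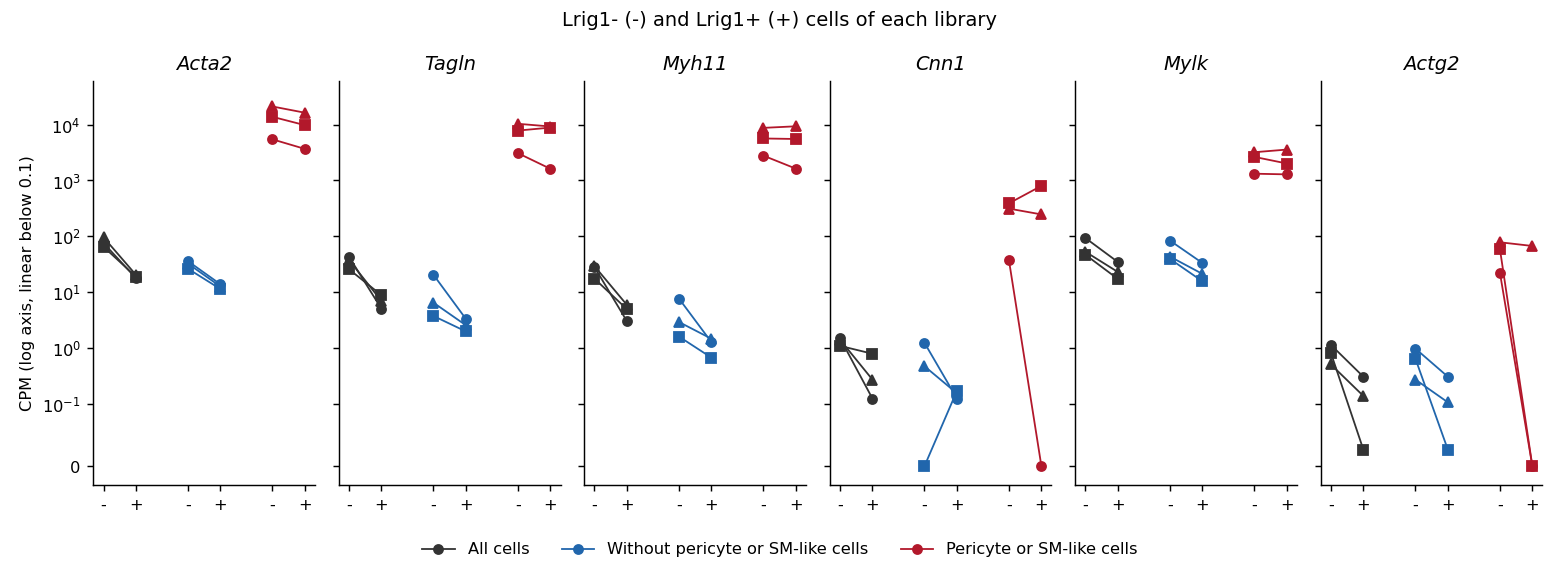
Points give the level of each gene in CPM (log axis, linear below 0.1) in the summed Lrig1- and Lrig1+ cells, with lines joining the sums of 1 library, for all cells (black), all cells without the pericyte or smooth muscle-like class (blue) and that class alone (red). Over all cells the 6 genes lie lower in Lrig1+ cells in 3 of 3 libraries, Acta2 at 17.8 to 20.4 CPM against 65.1 to 96.1 CPM.

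By edgeR's quasi-likelihood test over 19793 genes, with no term for the library, 0 of the 6 genes passed a Benjamini-Hochberg adjusted p of 0.05, and neither did any other gene (0% called lower). At an unadjusted p under 0.05 all 6 were lower, where 8.69% of the genes tested were. With the library as a block, which the shared pool of each pair of sums calls for, 5 of 6 fell (13.8% of the genes tested). Acta2 fell by 2.01 ± 0.10 (SE) on the log2 scale with an adjusted p of 0.00253 in edgeR's blocked test, against 0.171 without the block. In that blocked test Tagln fell by 2.33 ± 0.31 (adjusted p = 0.0108), Myh11 by 2.41 ± 0.28 (0.00858), Mylk by 1.32 ± 0.06 (0.00253) and Actg2 by 2.34 ± 0.51 (0.0328). Cnn1 had a log2 fold change of -2.02 ± 0.60 and did not pass (0.0706). DESeq2, also with no term for the library, called 4 of 6, without Cnn1 and Actg2 (3.28% of the genes tested).

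The Lrig1+ cells were also the deeper cells, and classes of cells differ in depth. When the same number of Lrig1+ and Lrig1- cells was drawn from each bin of UMI count (3458, 1954 and 7261 cells per group), the log2 fold changes were smaller, and without the block 1 of 6 was lower at an unadjusted p under 0.05 (73 of 18381 genes). In edgeR's blocked test on the matched cells, only Acta2 passed (1 of 6, against 5.36% of the genes tested), having dropped by 0.52 ± 0.05 with an adjusted p of 0.00408. Tagln had an adjusted p of 0.0849 there, and Mylk a log2 fold change of -0.09 (0.156). With cells thinned to 5000 UMIs, leaving out shallower cells, 0 of 6 passed the adjusted p in edgeR's test without the block. At an unadjusted p under 0.05, 5 of 6 were lower there (514 of 17344 genes). The count thus moved more with matching for depth than with thinning. The part of depth in the larger difference over all cells was not tested.

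Leaving out the 137 pericyte or smooth muscle-like cells left a smaller difference for Acta2, Tagln and Myh11. Acta2 then stood at 13.9, 11.4 and 12.6 CPM in Lrig1+ cells and at 36.0, 26.4 and 32.6 CPM in Lrig1- cells. Mylk stood at 33.4, 15.7 and 21.3 CPM against 84.2, 39.6 and 43.5 CPM, nearly as before. Tagln went to 3.33, 1.99 and 2.56 CPM against 20.5, 3.77 and 6.52 CPM. Actg2 overlapped between the groups, and Cnn1 was lower in only 2 of 3 libraries. By edgeR's test without the block 0 of 6 passed (0% of 19764 genes), and 5 of 6 were lower at an unadjusted p under 0.05 (8.3% of the genes). That count was 1 of 6 on matched cells (73 of 18365 genes), 1 of 6 without library 3 (1382 of 19874 genes) and 0 of 5 tested members with cells thinned to 5000 UMIs (510 of 17334 genes). With the block 4 of 6 fell (13.5%): in edgeR's test Acta2 fell by 1.29 ± 0.06 (adjusted p = 0.00262), Tagln by 1.64 ± 0.36 (0.0333), Myh11 by 1.60 ± 0.36 (0.0373) and Mylk by 1.20 ± 0.08 (0.00337). With the quality limits for genes and UMIs exchanged, which kept only 4432, 1549 and 9914 cells, the Acta2 log2 fold change without this class was 0.26, in the opposite direction. DESeq2 called 3 of 6 (2.98%), and on matched cells with the block Acta2 alone passed (5.37%), having dropped by 0.43 ± 0.07 with an adjusted p of 0.015 in edgeR's test.

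Within the pericyte or smooth muscle-like class, the differences in Acta2, Tagln, Myh11 and Mylk were smaller, as ratios, than over all cells. There Acta2 had 3662, 9740 and 16260 CPM in the 11, 4 and 8 Lrig1+ cells and 5434, 13736 and 21029 CPM in the Lrig1- cells, ratios of 0.674 to 0.773. For Tagln, Myh11 and Mylk in that class the ratio lay on both sides of 1, at 0.525 to 1.13, 0.585 to 1.07 and 0.762 to 1.12. Cnn1 had 0, 47 and 22 UMIs in these Lrig1+ cells and Actg2 had 0, 0 and 6, too few to give a ratio in every library. With fewer than 20 cells in a sum, this class was not tested. In fibroblast-like cells Mylk stood at 282, 291 and 356 CPM in Lrig1+ cells and at 279, 323 and 339 CPM in Lrig1- cells, with overlap. Acta2 in fibroblast-like cells stood at 21.1, 13.2 and 44.2 CPM in Lrig1+ cells against 15.5, 7.53 and 30.9 CPM, with single cells holding 78, 14 and 146 of the 444, 51 and 659 UMIs.

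Over the 13 classes that could be tested, edgeR's quasi-likelihood test covered 20 pairs of class and member. Without the block 0 of them passed, and DESeq2 called 0. At an unadjusted p under 0.05 in edgeR's test without the block there were 2. These were Acta2 and Myh11 in the Tg/Cntn5/Ntng1 cluster, both lower in Lrig1+ cells, where 321 of 11710 genes were lower at that p. At the adjusted p, the background without the block was 0% in muscle satellite-like cells, fibroblast-like cells and the Tg/Cntn5/Ntng1 cluster. With the block 2 pairs passed. Acta2 in muscle satellite-like cells fell by 0.38 ± 0.07 on the log2 scale in edgeR's blocked test (adjusted p = 0.0209, where 0.136% of genes were called), from 487, 292 and 498 CPM in Lrig1- cells to 317, 221 and 450 CPM in Lrig1+ cells. In the Tg/Cntn5/Ntng1 cluster Acta2 fell by 3.10 ± 0.40 in the same test (adjusted p = 0.0313, with 0.111% of genes called), although the levels were 28.1, 3.79 and 1.73 CPM against 203, 1.76 and 45.9 CPM and went the other way in library 2. Only 19, 3 and 15 of the 324, 116 and 450 cells of the cluster had an Acta2 UMI, and the cell without Krt14 or Epcam UMIs held 177 of the 509 Acta2 UMIs of library 1. In fibroblast-like cells the Acta2 log2 fold change of 0.51 ± 0.11 did not pass in the blocked test (adjusted p = 0.202, with 0.092% of genes called).

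The difference in CPM was then divided into a composition part, from Lrig1+ and Lrig1- cells having other shares of UMIs in each class, and a within part, from another level inside a class. Summed over the 6 genes, composition made up 86.1% ± 8.74 (SD, n = 3 libraries). Exchanging the quality limits for genes and UMIs, as the methods word them, kept only 4432, 1549 and 9914 cells. With these limits the composition share was 42.3%. Without the cluster of library 3 alone it was 86.1% ± 8.74, and the means by gene were 76.3% for Acta2, 90.7% for Tagln, 89.5% for Myh11, 96.5% for Mylk and 70.0% for Actg2. For Mylk it was 96.9%, 89.7% and 102%, for Acta2 68.2%, 73.9% and 87.4%, and for Tagln 67.3%, 111% and 93.3%. For Actg2, on few UMIs, it was 67.2%, 37.2% and 84.8%. A share above 100% means that the within part had the opposite sign. Of the Acta2 difference of -60.0 ± 14.9 CPM, the composition part of the pericyte or smooth muscle-like class was -33.5 ± 12.4 CPM and that of muscle satellite-like cells -8.65 ± 2.85 CPM. For Tagln and Myh11 the composition part of the pericyte or smooth muscle-like class was -18.9 ± 5.28 and -16.1 ± 6.07 CPM. Mylk differed, in that fibroblast-like cells carried -27.8 ± 13.2 CPM and the pericyte or smooth muscle-like class -7.22 ± 2.13 CPM. For Cnn1 the composition share ran from 27.3% to 397%, so no share can be given for it.

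**Figure D5:**
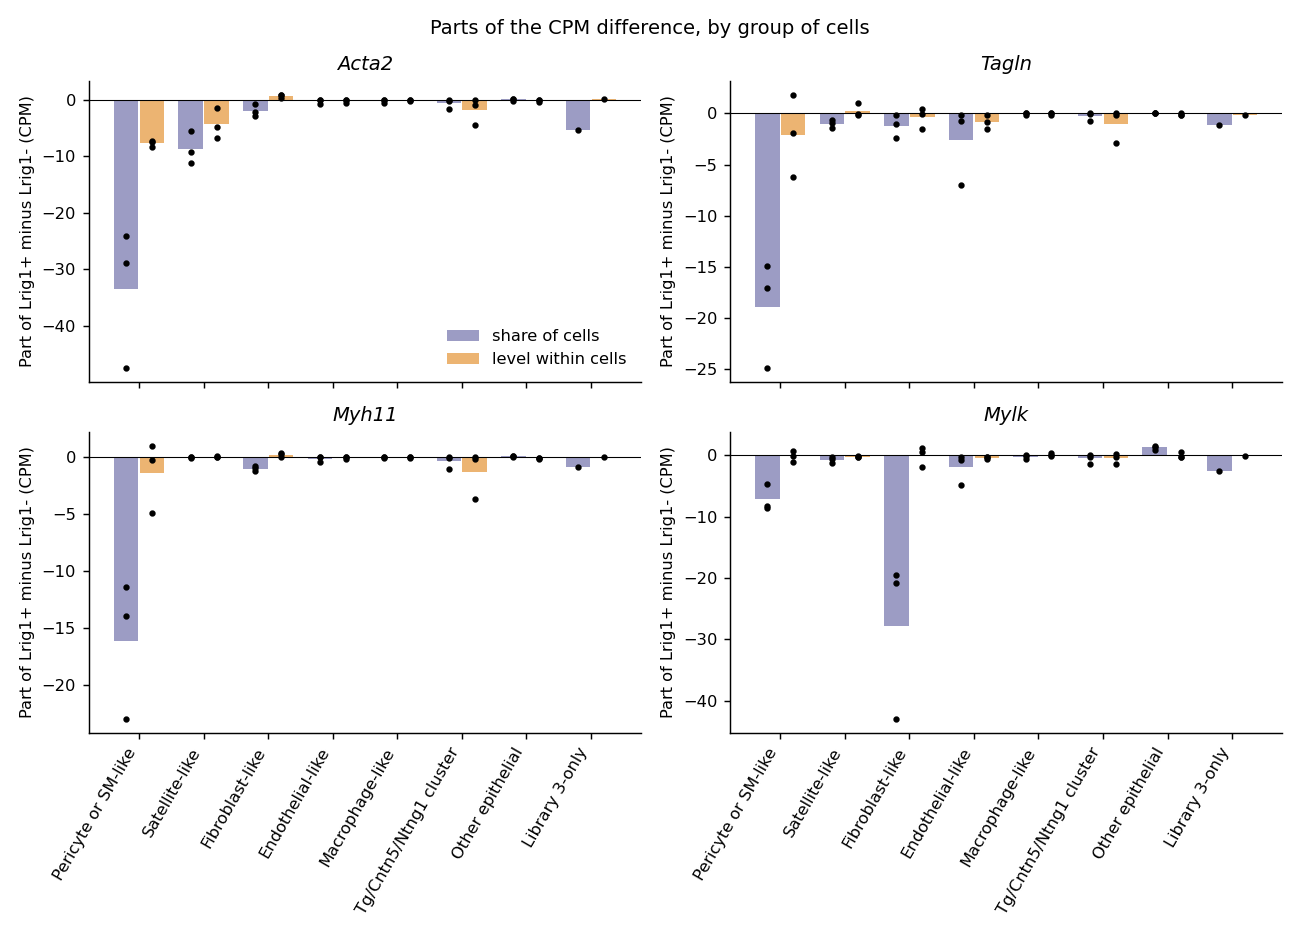
Bars give the composition and within parts of the difference Lrig1+ minus Lrig1- in CPM for Acta2, Tagln, Myh11 and Mylk by cell class, as means over 3 libraries with points for single libraries (the last class exists in library 3 alone). For Acta2 the largest part is the composition of the pericyte or smooth muscle-like class (-33.5 CPM), and for Mylk that of fibroblast-like cells (-27.8 CPM).

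Other genes of the programme were read from 4 lists. Of 20 genes of the smooth muscle apparatus, 18 had their highest level in the pericyte or smooth muscle-like class, and with the block 13 fell and 0 rose in Lrig1+ cells (median log2 fold change -0.39, against 0.01 over all genes). That class was also highest for 5 of 9 regulators, 17 of 22 signalling genes and 2 of 14 paralogs. The share of all genes highest in it is not given here, so these counts of highest level are descriptions. Over all 19793 genes the blocked test called 2738 lower (13.8%) and 2202 higher, which is the background for each list. Without the pericyte or smooth muscle-like class the counts changed little: 12 of 20 fell in the apparatus list, 5 of 9 regulators fell and 2 rose, 11 of 21 signalling genes fell and 1 rose, and 6 of 12 paralogs fell and 1 rose (13.5% of all genes were called lower). Myl9, the regulatory light chain, stood at 4398 ± 1994 CPM in that class (SD, n = 3) and dropped by 1.93 in Lrig1+ cells (adjusted p = 0.00221 in edgeR's blocked test). Pdlim3, a Z-disc protein, dropped by 1.41 (0.00288) and Pgm5 by 1.46 (0.00367), although Pgm5 was higher in endothelial-like cells (194 ± 36.3 CPM) than in the pericyte or smooth muscle-like class (91.6 ± 29.8 CPM). Palld and Vcl, which link actin to adhesions, had log2 fold changes of -0.06 and 0.00 and did not pass. No gene of any of the lists passed in edgeR's test without the block, and the lists were not read from DESeq2.

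Of 9 regulators 5 fell and 2 rose with the block (median -0.51). Myocd, the co-activator myocardin, dropped by 2.25 (adjusted p = 0.0116 in edgeR's blocked test) and the mesenchymal factor Prrx1 by 1.25 (0.00221). The related co-activators Mrtfa and Mrtfb rose, with log2 fold changes of 0.21 (0.0215) and 0.24 (0.0124), and serum response factor itself, Srf, had -0.08 (0.432). Of 22 genes of contraction signalling 12 fell and 1 rose (median -0.29). Pln, which restrains the calcium pump of the sarcoplasmic reticulum, dropped by 2.33 (0.00772) and the cyclic GMP-dependent kinase Prkg1 by 1.46 (0.00311), while the calcium channel Itpr1 rose by 0.37 (0.00735). Of 12 tested paralogs of the members, 6 fell and 1 rose (median -0.35): Acta1, the skeletal actin, dropped by 1.39 (0.00825), Myh14, a non-muscle myosin, rose by 0.41 (0.0259), and the cytoplasmic actin Actg1 had -0.13 (0.167). Actin reads can be shared between paralogs, so Acta2, Actg2 and Acta1 are uncertain to that extent.

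The genes whose levels were most like the mean profile of the 6 members over 56 pairs of class and library (15595 genes compared) were Jph2, Myl9, Foxs1, Gm56503, Hspb7, Gm36440, Carmn, Ppp1r1a, Aoc3 and Susd5, with Pearson r from 0.94 to 0.90. The members themselves had r from 0.86 (Mylk) to 0.96 (Myh11) with their mean. The pairs share libraries, the pericyte or smooth muscle-like class enters from 2 libraries only, and these values are descriptions. Carmn, a long non-coding RNA of smooth muscle, stood at 520.7 and 520.9 CPM in that class, with 30.9 CPM as the next highest class.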

How the data were processed

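Per the labels and the study's methods, the authors sequenced tdTomato-sorted larynx cells with 10x GEM-X 3' v4 chemistry and deposited UMI counts per gene and barcode from Cell Ranger 8.0.1 on mm39. A barcode passed with 1000 to 40000 UMIs from 500 to 8000 genes and no more than 8% of them mitochondrial, and likely doublets were removed at 0.4% per 1000 barcodes. Cells were clustered on 2000 variable genes (15 components, 15 neighbours, Leiden resolution 1.0) in Python 3.11.15. Counts were summed per library for Lrig1+ and Lrig1- cells and tested with edgeR 4.0.16 (quasi-likelihood, Benjamini-Hochberg over all genes) and DESeq2 1.42.0 in R 4.3.3. CPM scales a count by the UMIs of all genes. Sums of the same number come from the same pool, so the numbers pair them: deviations correlated at 0.66, 0.61 and 0.72 within a library and at most -0.06 across. Tested on simulated data for all cells (19553 genes), the blocked test recovered 98% and 100% of changes of 1 and 2 on the log2 scale, and the test without the block 48% and 87%. Named genes were taken from the members, the 3 highest and 3 lowest of each list, not all of which are printed, and the 10 genes most like the members. An item that this rule allows is not reported here. The members and lists were chosen with earlier results of these data known. Replicates are 3 separate pools.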

Additional observations from a re-analysis of the deposited data

Results flagged for a closer look

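Acta2 was higher in Lrig1+ than in Lrig1- fibroblast-like cells in 3 of 3 libraries, with ratios from 1.36 to 1.76. Single cells held 78 of the 444, 14 of the 51 and 146 of the 659 Acta2 UMIs of this class, so the ratios can rest on 1 cell per library, and they were not recomputed without it. Among classes with enough UMIs for a ratio in every library (more than 3 in each group), it was lower in Lrig1+ cells of 3 other classes in 3 of 3 libraries each: 0.674 to 0.773 in the pericyte or smooth muscle-like class, 0.651 to 0.904 in muscle satellite-like cells and 0.312 to 0.962 in the other epithelial clusters. In the other epithelial clusters Acta2 was near the ciliated-like background, and 1 cell held 19 of the 46 UMIs of library 2. In endothelial-like cells Acta2 was also lower in 3 of 3 libraries, on 2, 0 and 0 UMIs in Lrig1+ cells. The difference between these classes was not tested.

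The barcodes of library 3 that were removed as doublets held 201 Cnn1 UMIs, against 207 in the kept cells of that library, and entered only the alternatives that keep doublets or all barcodes. Among them, 5 passed the Krt14 gate and lay nearest to the Tg/Cntn5/Ntng1 cluster, with 0 to 70 Cnn1 and 7 to 487 Acta2 UMIs each.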

How the results depend on the processing

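DESeq2 was run without a library block, and counts with no test named are those of edgeR. The number of members called lower depended on the test and on the library block. Over all cells 0 were called without it, 5 with it, 4 by DESeq2, 1 on cells matched for depth with the block, 5 with the block and without the cluster of library 3 alone (2870 of 19663 genes called lower), and 3 to 5 with the block and 1 library left out (3 without library 3), where 2307 of 20170, 786 of 20408 and 1711 of 19904 genes were called lower without libraries 1, 2 and 3. Without the pericyte or smooth muscle-like class the counts were 0, 4 with the block, 3 by DESeq2, 1 on matched cells with the block, 4 with the block and without the cluster of library 3 alone (2790 of 19634 genes), 4 with the block and without muscle satellite-like cells as well (2295 of 19530 genes), and 2 to 4 with the block and 1 library left out (2 without library 2), where 2225 of 20138, 740 of 20368 and 1992 of 19874 genes were called lower. Within classes the count was 0, and 2 with the block. The replicate block changed no other call of a member. Over all genes, edgeR called 0 without the block and 4940 with it, and DESeq2 without the block called 905. Of 250 log2 fold changes of members under alternatives, 249 kept their direction. Most were over all cells or without the pericyte or smooth muscle-like class. The within-class values among them were those of Acta2 in muscle satellite-like cells, and of Acta2 and Myh11 in the Tg/Cntn5/Ntng1 cluster. These entered because they passed with the block or had an unadjusted p under 0.05 in edgeR's test without it. Other within-class values were not counted, and some changed direction. In fibroblast-like cells 3 of 5 tested members were lower in Lrig1+ cells without the block, and 1 of 5 when library 2 was left out.

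With the quality limits swapped between genes and UMIs as the methods word them, the share of member UMIs in the pericyte or smooth muscle-like class was 31.9% in place of 44.6% (41.0% to 50.5% with 1 library left out), the composition share was 42.3% in place of 86.1% (82.1% to 90.8% with 1 library left out), and the Acta2 log2 fold change without that class was 0.26; the cause was not tested. The Cnn1 composition share turned negative with the swapped limits (-9.89%), with Lrig1+ set at 2 UMIs or more (-54.5%) and with cells thinned to 5000 UMIs (-114%); the cause was not tested. Depth limits Cnn1 and Actg2, which rest on few UMIs.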
